A study of Mus musculus with 17 samples.

Results

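Immediate early genes are switched on within minutes of a stimulus from transcription factors already present in the cell, with no new protein synthesis. In neurons Fos, Arc, Npas4 and the Egr family are read as marks of recent activity. In glia, blood vessels and immune cells much the same set answers growth factors, shear stress, cytokines and injury, and taking tissue apart into single cells is itself a known stimulus. The genes described here are 33 listed immediate early genes. The rule picks them by name and sets no threshold on their values, and all 33 are among the 23284 genes of the merged count table.

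The series measured single cells of the hypothalamus by Drop-seq, a droplet method in which each captured RNA molecule gets a mark for its cell and a random tag (UMI), so that molecules rather than reads are counted. It holds 5 mice kept in the normal condition and 3 mice food-deprived for 24 hours, all B6D2F1 hybrids of a C57BL6 mother and a DBA2 father. The labels give neither age nor sex. They give 1 protocol for dissection and dissociation, which both groups share, so no sample shows these genes without that step. The mouse was the replicate, and its libraries, 17 in all, were summed. Cell classes are those of the deposited cluster names, with numbered clusters of the same stem summed.

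The 14276 cells used held 46904254 UMIs, from 290861 UMIs (129 cells, normal replicate 1) to 12570644 UMIs (3639 cells, food-deprived replicate 1) per mouse. Normal replicates 1 and 2 had 129 and 158 cells, so most class values come from the other mice. Libraries were of 2 kinds, 8 with Gapdh at 151 to 811 CPM (UMIs of a gene scaled to a total of 1000000) and 9 with Gapdh at 4.36 to 8.53 CPM. Normal replicates 1, 2 and 5 and food-deprived replicate 3 had only high-Gapdh libraries, and normal replicate 3 only low-Gapdh ones. Batches 1 and 2 held both groups, batches 0 and 3 only normal mice and batch 4 only food-deprived replicate 3. Library kind, batch and mouse thus cannot be fully told apart. Across the 3 mice with both kinds, the median log2 ratio of high- to low-Gapdh libraries was -0.12 for Fos and -0.09 for Jun. Over the 31 early genes compared it ran from -0.62 for Fosl2 to 0.58 for Jund, with Nr4a1 at -0.45, Zfp36 at -0.42 and Nr4a2 at -0.41. Of the barcodes, 120 occurred in more than 1 library. The class names were checked against marker sums. MO (myelin genes), IMO (genes of newly formed oligodendrocytes), OPC (precursor genes), Astro, Tany, Ependy, Micro and Macro each held the markers of their name at the highest level of any class. GABA and Glu did so for the markers of their transmitter, but general neuron markers were as high in a deposited remainder of 2309 cells named zothers, which is left out of the class comparisons. The class named Epith held endothelial markers at 7976 ± 1194 CPM (SD, n = 6 mice) and mural markers at 6087 ± 116 CPM, against 787 ± 698 and 2393 ± 1868 CPM in Macro, the next class, and is called by its deposited name. Class levels below are CPM of all UMIs in a mouse's cells of that class, for mice with at least 20 such cells. They are descriptions with no test, because the clusters were drawn from the same cells.

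Summed over the 33 genes, Epith cells carried the most early gene RNA, 45625 ± 3168 CPM (SD, n = 6) or 4.56% of their UMIs. Tanycytes, the ependymoglia that line the floor of the third ventricle, followed with 37516 ± 4664 CPM (n = 6). Macro held 28092 ± 1755 CPM (n = 3), Micro 26984 ± 3999 CPM (n = 5), Ependy 26721 ± 5093 CPM (n = 6) and OPC 21195 ± 2015 CPM (n = 7). Astro cells lay lower and were the most variable between mice, at 14524 ± 5862 CPM (n = 6). MO had 9067 ± 1098 CPM (n = 8), all neurons together 6596 ± 1642 CPM (n = 7), IMO 5888 ± 501 CPM (n = 5) and Glu 4323 ± 1538 CPM (n = 6). Macro, Micro and Ependy lay within one another's SD. Of the 11 classes, Glu and GABA thus had the lowest and the third lowest sum.

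Of the 33 genes, 12 had their highest class mean in Epith, 6 in Tany, 5 in Micro, 4 in Macro, 2 in GABA, 2 in Ependy, 1 in IMO and 1 in Astro. The range over mice of the highest class lay apart from that of the second class for 5 genes, which were Fosl2, Ier5, Dusp6, Klf2 and Gadd45b. For the other 28 the ranges of the leading classes overlapped. Fos, Jun and Egr1 were the 3 most abundant in several classes, whereas Micro was led by Egr1, Atf3 and Jun, Macro by Fosb, Fos and Jun, and IMO by Jun, Fos and Fosb.

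**Figure D1:**
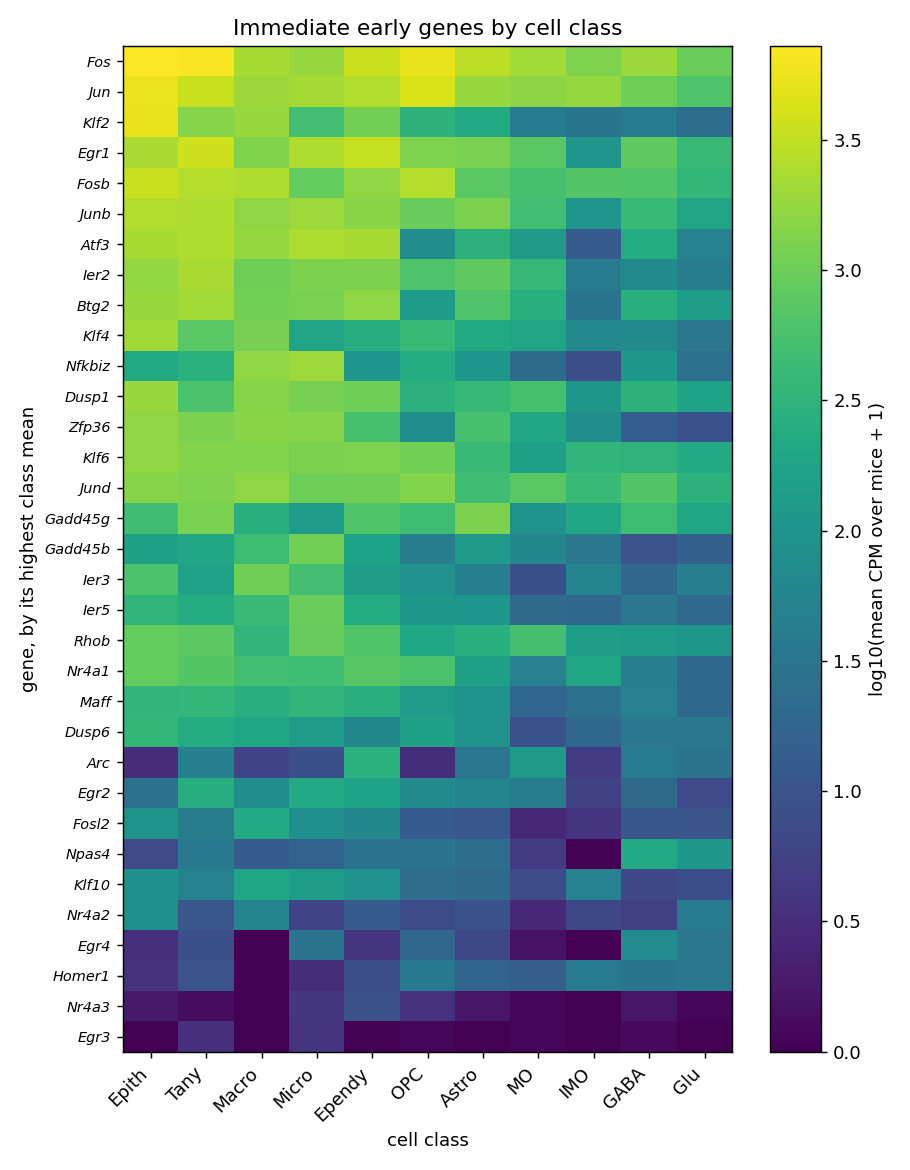
Mean level of each of the 33 genes (rows, ordered by their highest class mean) in 11 cell classes (columns), as log10 of the mean CPM over mice plus 1. Fos and Jun are high in most classes, whereas Npas4 is brightest in GABA and Glu and Arc in Ependy.

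The AP-1 genes encode the basic leucine zipper proteins of the Fos and Jun families, which bind DNA as dimers. Fos led them. In Epith its level per mouse ran from 5776 CPM through a median of 6857 to 9328 CPM, in Tany from 5421 through 6836 to 7759 CPM, and in OPC from 4273 through 5391 to 7083 CPM. Epith and Tany overlapped widely, and OPC reached into both. Neuronal Fos was lower, with 1893 ± 355 CPM in GABA (n = 7) and 993 ± 395 CPM in Glu (n = 6), the lowest class mean. The lowest Epith mouse lay above the highest GABA mouse, which had 2398 CPM. Jun was also highest in Epith but next in OPC, with 5560 ± 853 CPM in Epith and 4454 ± 591 CPM in OPC. Fosb peaked in Epith at 3393 ± 1088 CPM, and Junb reached 2629 ± 510 CPM in Epith and 2510 ± 742 CPM in Tany. Jund, another Jun family gene, peaked in Macro at 1598 ± 246 CPM. Fosl2 was low outside Macro, where it had 229 ± 27.0 CPM (n = 3).

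A cell counts here as holding a gene if at least 1 UMI remained after each cell was thinned to 1000 UMIs, which left out 4.70% of IMO cells to 26.1% of Astro cells. On that scale 96.4% of tanycytes held a Fos UMI, 93.7% of OPC, 92.2% of Ependy, 84.2% of Epith, 65.8% of GABA and 35.04% of Glu cells. Unthinned, the shares were 98.2%, 95.7%, 96.4%, 85.7%, 79.4% and 51.3%. No class lacks Fos by nature, so no share of free RNA can be set beside these. The mean number of the 33 genes found per thinned cell was 13.0 ± 0.90 in Tany, 12.8 ± 0.87 in Epith and 11.7 ± 1.18 in Ependy, against 4.46 ± 0.49 in GABA and 2.49 ± 0.62 in Glu.

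Early gene promoters often hold binding sites for CREB, the cyclic AMP and calcium responsive factor, and for serum response factor. The 250 bases before the start of transcription were searched on both strands in RefSeq windows (build GRCm38.p6), which matched 27 of the 33 genes by symbol. The other 6 (Arc, Egr1, Egr3, Ier2, Klf10 and Nfkbiz) had no window by symbol and were not searched. The full CREB site TGACGTCA stood in 3 of the 27 (Btg2, Dusp1 and Maff), or 11.1%, and in 1.77% of all genes with a window. Its half-site TGACG, which every full site contains, stood in 16 of the 27, or 59.3%, and in 19.8% of all genes. The CArG box of serum response factor stood in 2 (Egr2 and Zfp36), or 7.41%, and in 1.62% of all genes. The E-box CACGTG stood in 7, or 25.9%, against 6.86%, and the AP-1 motif TGANTCA in 0 against 7.82%. These are matches of letters in a window and say nothing of binding. The sequences shown are the 250 bases of the most abundant gene, Fos, and of 3 genes with a full CREB site or a CArG box, 5′ to 3′ on the gene's strand. Capitals mark the half-sites in Fos (129 and 66 bases before the start), the full CREB site in Dusp1 (143 before) and Btg2 (166 before), and the CArG box in Zfp36 (58 before). The windows are chr12:85473640-85473889 on the plus strand for Fos, and on the minus strand chr17:26508473-26508722 for Dusp1, chr1:134079156-134079405 for Btg2 and chr7:28379229-28379478 for Zfp36.
Fos: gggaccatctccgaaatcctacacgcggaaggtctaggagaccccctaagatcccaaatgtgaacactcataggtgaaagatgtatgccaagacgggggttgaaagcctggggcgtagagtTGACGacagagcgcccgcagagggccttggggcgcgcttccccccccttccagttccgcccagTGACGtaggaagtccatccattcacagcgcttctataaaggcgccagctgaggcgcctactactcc
Dusp1: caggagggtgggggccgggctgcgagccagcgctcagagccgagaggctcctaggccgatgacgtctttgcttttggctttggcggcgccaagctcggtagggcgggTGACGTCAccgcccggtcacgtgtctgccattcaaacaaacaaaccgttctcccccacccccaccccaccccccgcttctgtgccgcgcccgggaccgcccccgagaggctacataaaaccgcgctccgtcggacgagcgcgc
Btg2: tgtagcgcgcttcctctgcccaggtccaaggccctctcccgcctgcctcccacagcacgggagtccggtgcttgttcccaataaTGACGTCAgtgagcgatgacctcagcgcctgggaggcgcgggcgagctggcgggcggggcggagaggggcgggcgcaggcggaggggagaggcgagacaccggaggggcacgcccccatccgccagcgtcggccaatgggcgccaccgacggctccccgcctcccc
Zfp36: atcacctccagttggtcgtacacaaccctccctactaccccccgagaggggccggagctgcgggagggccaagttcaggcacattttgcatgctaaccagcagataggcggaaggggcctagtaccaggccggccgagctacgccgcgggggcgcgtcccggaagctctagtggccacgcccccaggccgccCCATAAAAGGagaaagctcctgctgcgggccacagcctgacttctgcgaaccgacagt

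Egr1, whose protein is a widely used activity mark, was highest in Tany at 3834 ± 689 CPM (n = 6), then Ependy at 3274 ± 971 CPM and Micro at 2549 ± 804 CPM, where it led all 33 genes. Egr2, known for its role in myelination, was 251 ± 104 CPM in Tany and 232 ± 55.8 CPM in Micro. Klf2, the shear stress responsive factor of endothelium, ranged from 4047 to 6593 CPM over the Epith mice (median 5321) and from 1093 to 2808 CPM in the 3 Macro mice. Epith and Macro did not overlap for Klf2, and neurons had 30.0 ± 15.8 CPM. Among thinned cells 87.2% of Epith and 2.9% of neurons held a Klf2 UMI, with median depths of 1611 and 3930 UMIs per cell. Klf4, another endothelial factor, had 2016 ± 453 CPM in Epith and Klf6 1662 ± 333 CPM. Klf10 was highest in Macro, at 193 ± 96.3 CPM.

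The class named Epith holds 2 clusters, Epith1 with 810 cells and Epith2 with 377. Endothelial markers summed to 10433 ± 1075 CPM in Epith1 and 4578 ± 750 CPM in Epith2, and mural markers to 3867 ± 585 and 9169 ± 862 CPM. Klf2 was high in both, 6054 ± 1424 and 4494 ± 1108 CPM (n = 6 each). The growth arrest and DNA damage genes Gadd45b and Gadd45g separated them, with ranges that did not overlap. Gadd45b had 25.4 to 125 CPM in Epith1 and 201 to 404 CPM in Epith2, and Gadd45g 188 to 378 and 467 to 915 CPM.

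Nfkbiz, which encodes a nuclear regulator of NF-kappa-B targets, had 1946 ± 438 CPM in Micro (n = 5) and 1572 ± 836 CPM in Macro (n = 3). Zfp36, whose product destabilises cytokine messages, had 1461 CPM in Micro and 1663 ± 291 CPM in Epith, against 11.2 ± 1.6 CPM in neurons. Gadd45b was 1107 ± 253 CPM in Micro, and the 465 ± 121 CPM of Macro lay below all of its mice. Ier5 was likewise highest in Micro, 957 ± 162 against 431 ± 92.4 CPM in Macro. Ier3, a survival gene, peaked in Macro at 1039 ± 381 CPM. Atf3, induced by injury and stress, stood at 2470 ± 409 CPM in Tany, 2423 ± 317 CPM in Micro and 2284 CPM in Epith, and in neurons at 187 ± 230 CPM, an SD above its mean. Rhob, a small GTPase, had 919 ± 285 CPM in Micro and 871 ± 214 CPM in Epith.

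Dusp1, a phosphatase that inactivates MAP kinases, was 1865 ± 316 CPM in Epith (n = 6) and 1453 CPM in Macro, and lower in Tany at 586 CPM. Dusp6, which acts on ERK, ranged from 308 to 388 CPM in Epith and from 207 to 300 CPM in Tany, without overlap. Btg2, an antiproliferative gene, and Ier2 peaked in Tany at 2113 ± 803 and 2335 ± 771 CPM, and Maff, a small Maf factor, at 362 ± 135 CPM. Gadd45g was 1264 ± 462 CPM in Astro and 1208 ± 265 CPM in Tany. The orphan nuclear receptor gene Nr4a1 had 877 ± 207 CPM in Epith and Nr4a2 85.9 ± 32.6 CPM.

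A few genes ran the other way. Npas4, a transcription factor gene induced by calcium entry in neurons, was 218 ± 82.5 CPM in GABA (n = 7, from 86.6 to 330 CPM) and 114 ± 30.2 CPM in Glu (n = 6, 73.7 to 148 CPM). Every other class mean was at most 36.0 CPM, apart from the 194 ± 45.1 CPM of the remainder. Among thinned cells 17.3% of GABA and 8.0% of Glu cells held an Npas4 UMI, against 0.3% of MO cells, whose median depth was 2195 UMIs against 3842 in GABA and 4092 in Glu. Egr4, a neuronal Egr gene, was also highest in GABA (71.0 ± 43.1 CPM) and Glu (32.5 ± 18.7 CPM).

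Arc, whose protein removes AMPA receptors from active synapses and whose RNA travels to dendrites, was highest outside neurons. Its level was 288 ± 94.8 CPM in Ependy (n = 6, from 134 to 423 CPM) and 117 ± 27.7 CPM in MO (n = 8, 73.8 to 146 CPM), against 33.3 ± 13.2 CPM in neurons (n = 7). Ependy and MO overlapped slightly, and the lowest MO mouse lay above the 55.9 CPM of the highest GABA mouse. A UMI of Arc was found in 24.6% of thinned Ependy cells, 8.1% of MO cells and 3.0% of neurons, and in 0.3% of OPC and of Epith cells. Homer1, a synaptic scaffold gene, was low everywhere and had 39.3 ± 23.5 CPM in IMO and 32.5 ± 5.2 CPM in neurons. Egr3 and Nr4a3 were near 0 in every class, at most 2.9 and 8.2 CPM.

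**Figure D2:**
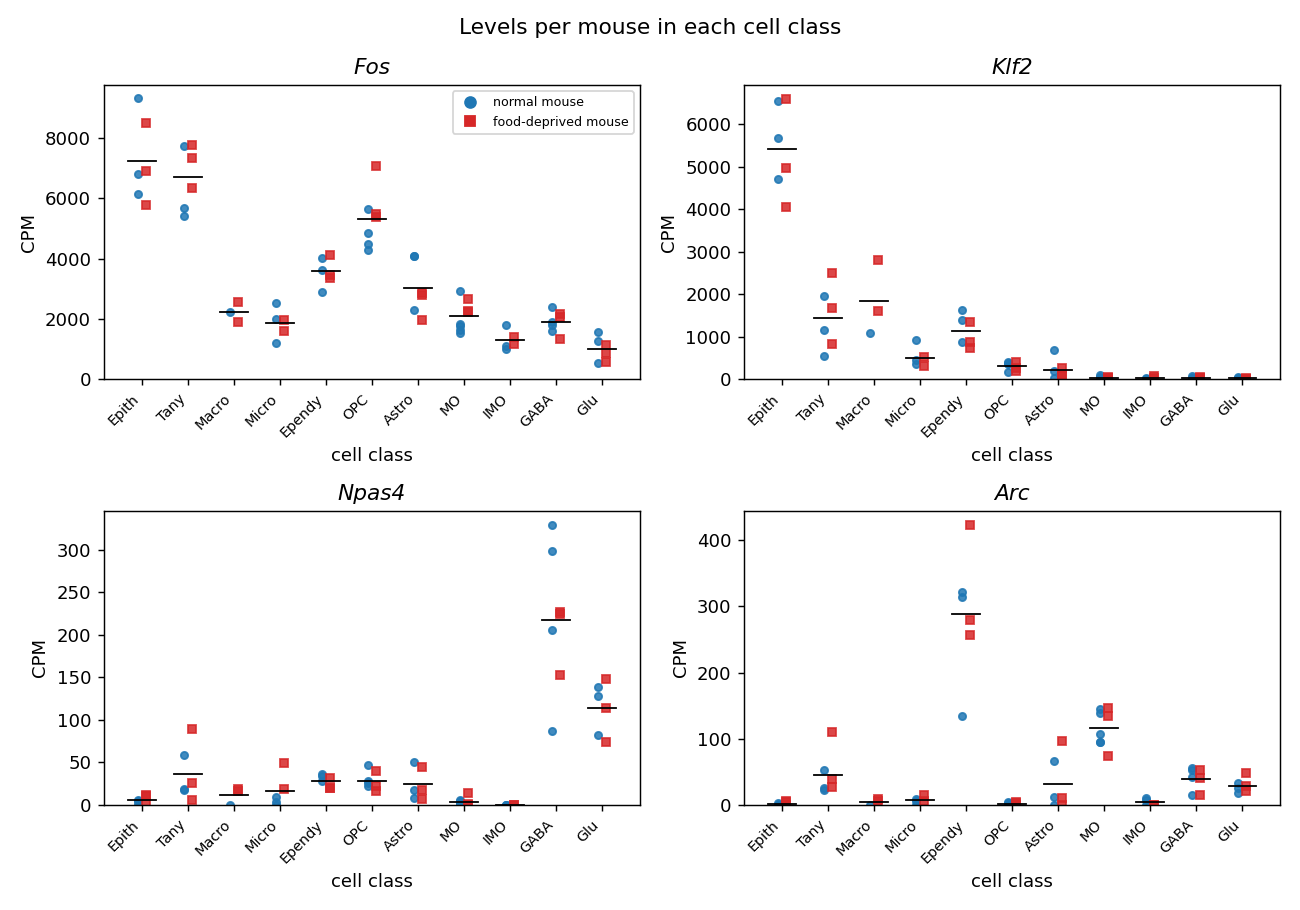
Level of Fos, Klf2, Npas4 and Arc (CPM, linear axis) in each mouse by cell class. Circles are normal mice, squares food-deprived mice and bars the mean over mice, and Klf2 in Epith, Npas4 in GABA and Arc in Ependy (288 CPM) stand highest.

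The genes outside the list whose class profile was most like that of Fos, by Pearson's r of log2(CPM + 1) over the means of 11 classes, were Ankhd1, Cdkn2b, Nmi, Ttc32 and Tmpo (r from 0.88 to 0.91). Within the list Jun had r = 0.89 with Fos, Fosb 0.86 and Klf4 0.82, while Npas4 had 0.01 and Arc -0.10. Those most like Arc were Ttll5, Kif6, Nkapl, Macrod1 and Spag6 (r from 0.89 to 0.93), each highest in Ependy. The class means share their libraries, and these values are descriptions.

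Within neurons the 33 genes were compared over 21 clusters with at least 5 cells in each of at least 3 mice. The 3 largest sums were in GABA clusters, GABA9 with 12596 ± 1368 CPM (n = 6), GABA15 with 12234 ± 2389 CPM (n = 5) and GABA2 with 12196 ± 2592 CPM (n = 3), and they did not differ beyond their SD. GABA9 is the cluster with the most Vip, and GABA15 the one with the most Agrp, the hunger peptide. The smallest were Glu6 with 1548 ± 572 CPM and Glu5 with 1981 ± 1106 CPM (n = 6 each). Fos ran from 3483 ± 476 CPM in GABA2 (n = 3) to 208 ± 186 CPM in Glu6 (n = 6), and all mice of GABA9, from 1867 CPM up, lay above all of Glu6, at most 442 CPM.

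Of the 33 genes, 22 had their neuronal maximum in GABA9, GABA2, GABA15 or GABA14. Npas4 was highest in GABA14, the cluster with the most Sst, at 506 ± 230 CPM (n = 5), with GABA9 at 375 ± 163 CPM overlapping it. In GABA9 Egr1 ranged from 1020 to 2448 CPM and Fosb from 800 to 2282 CPM, their highest clusters. Jun (2003 ± 721 CPM), Klf6 (586 ± 236 CPM) and Btg2 (570 ± 192 CPM) were highest in GABA15. Egr4 (426 ± 390 CPM), Arc (138 ± 148 CPM) and Nr4a1 (127 ± 97.0 CPM) were highest in GABA14, with wide spread between mice. Ranges of the first and second cluster lay apart for 2 genes. Atf3 stood at 849 ± 189 CPM in GABA15, between 715 and 1180 CPM in the 5 mice, and the second cluster, GABA11, reached 616 CPM at most. Nr4a2 stood at 489 ± 173 CPM in Glu11 (305, 513 and 648 CPM in 3 mice), the cluster with the most Tac2 and Kiss1, and the second, Glu6, reached 227 CPM at most.

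**Figure D3:**
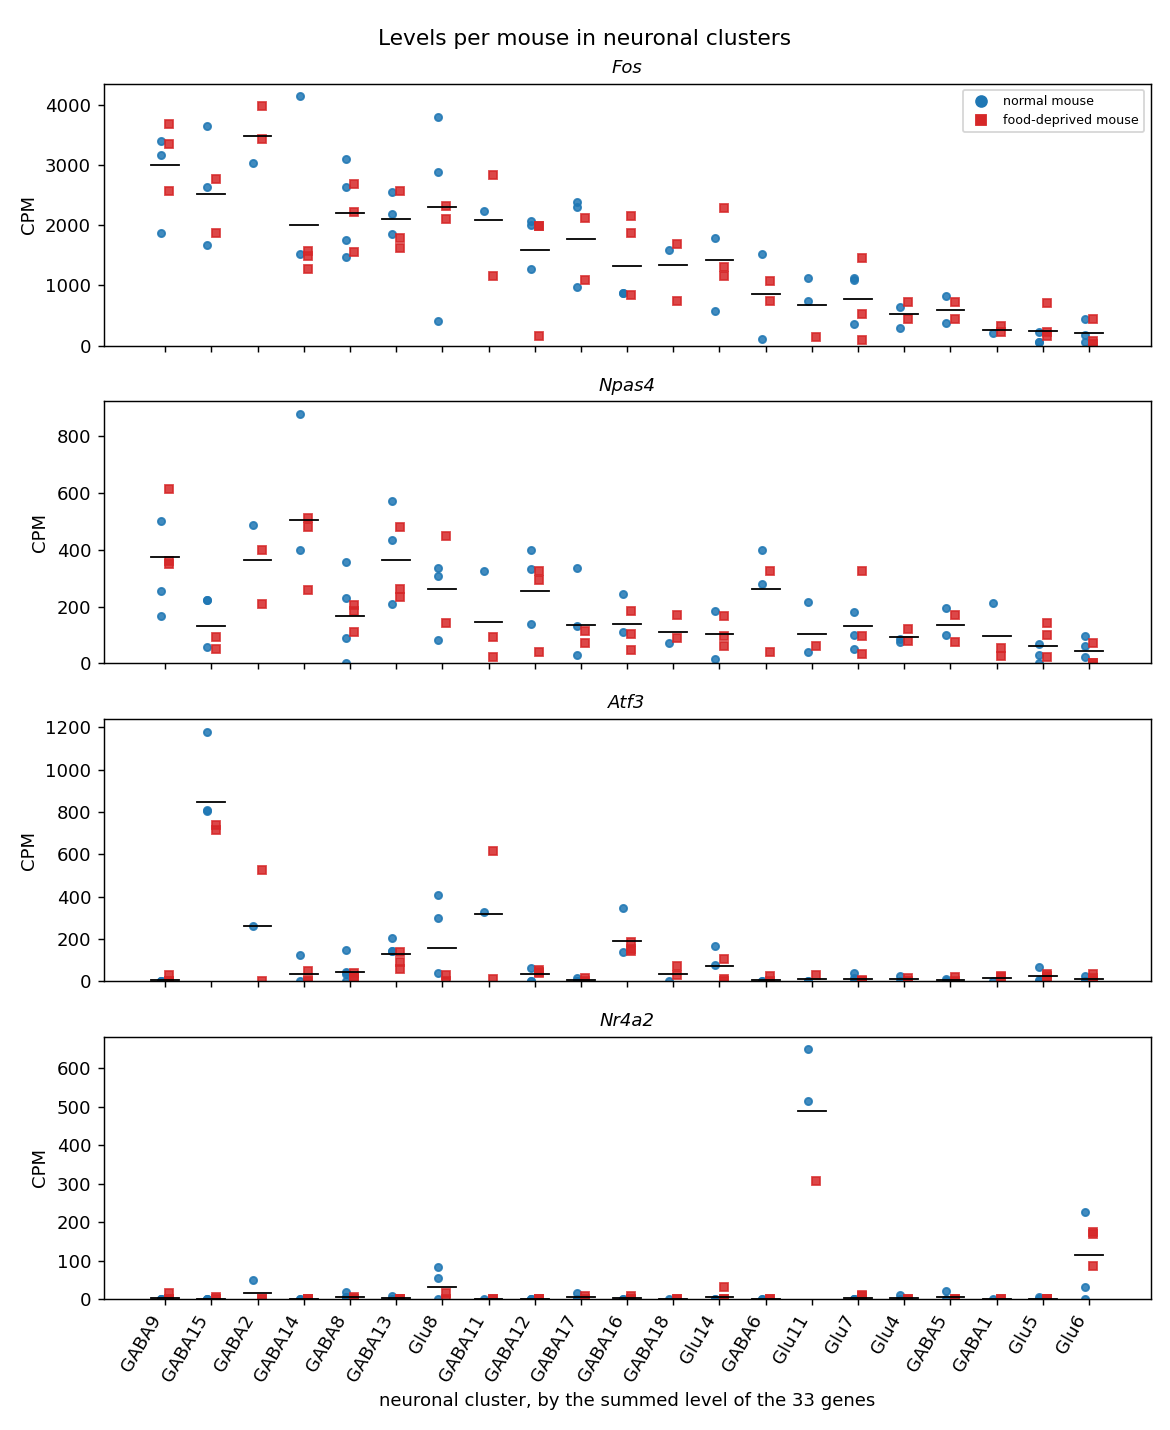
Level of Fos, Npas4, Atf3 and Nr4a2 (CPM, linear axes) in each mouse in 21 neuronal clusters, ordered by the summed level of the 33 genes. Circles are normal mice, squares food-deprived mice and bars means, and Atf3 stands apart in GABA15 (715 to 1180 CPM) and Nr4a2 in Glu11.

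The design then asks how 24 hours without food bears on these genes. No early gene passed the test in any class tested. The test was the quasi-likelihood F test of edgeR, adjusted by Benjamini-Hochberg over all genes of a class. It called 0 early genes in 11 fits of classes or all neurons, in all cells summed and in 6 neuronal clusters. It called 0% of all genes in each of these fits. Of the 33 genes, the fits tested from 12 (IMO) to 31 (all neurons and all cells). Macro had too few normal mice to be tested. DESeq2 also called 0 early genes in these fits. Levels in this comparison are CPM scaled by TMM, and each log2 value is the food-deprived group's minus the normal group's. The standard error (SE) beside an edgeR log2 value was derived from it, as its size over the square root of its F statistic. Unless stated, the fits had no term for batch. With the batch as replicate block, feeding was estimated only from batches 1 and 2, which held both groups. Those values rest on food-deprived replicates 1 and 2 and normal replicates 3 and 4, fewer mice than in most main fits. Their counts and p-values therefore differ in basis from those of the main fits. With 2 to 5 mice a group, p-values measure only the spread between these mice, and a miss does not show that groups were alike. In a sum over cells, fewer cells of a type and less RNA per cell cannot be told apart. The early genes were measured in the same few mice, where they can move together, and are not independent observations. Counts of genes lower or higher are therefore descriptions with no test.

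In all neurons the early genes leaned lower in the food-deprived mice. Of 31 tested, 27 had lower fitted values and 4 higher, with a median log2 fold change of -0.34, while 5464 of all 10923 genes were lower. An unadjusted p under 0.05 was reached by 5 of the 31, each lower, and by 2.12% of all genes. Nonoverlapping groups with the food-deprived mice lower were seen for 2 of the 31, Klf4 and Nfkbiz, and for 1.82% of all genes. Within batches, 18 of 31 were lower in food-deprived replicate 1 than in normal replicate 3 and 23 of 31 in food-deprived replicate 2 than in normal replicate 4, with medians of -0.04 and -0.25. With the batch as replicate block 23 of 31 were lower and the median was -0.09.

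The values of Fos in neurons overlapped between groups. Its level was 1566, 1080, 1716 and 1981 CPM in normal replicates 2 to 5 and 1140, 1540 and 1547 CPM in the food-deprived mice. The fit gave a log2 fold change of -0.17 ± 0.21 (SE, edgeR adjusted p = 1). Arc (-0.10 ± 0.32), Npas4 (-0.20 ± 0.28) and Junb (-0.28 ± 0.27) also lay within about 1 SE of 0. Larger fitted values belonged to Nr4a1 (-0.42 ± 0.25), Fosb (-0.53 ± 0.28) and Egr1 (-0.66 ± 0.35). They moved when 1 mouse was left out, Nr4a1 to -0.18 without normal replicate 5, Fosb to -0.28 without food-deprived replicate 3 or -0.34 without normal replicate 4, and Egr1 to -0.22 without normal replicate 2. Normal replicate 2, with 41 neurons, had the highest Egr1 at 1471 CPM against at most 694 CPM in the other normal mice. Without that mouse 23 of 31 genes were lower, with a median of -0.22.

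The 5 genes with p under 0.05 in all neurons were Nr4a2, Egr2, Klf4, Nfkbiz and Atf3. Nr4a2 in all neurons was 0, 16.4, 33.3 and 34.3 CPM in normal replicates 2 to 5 and 3.97, 9.64 and 14.1 CPM in the food-deprived mice (log2 -1.59 ± 0.50, edgeR adjusted p = 1). Normal replicate 2 held none, and the groups overlapped. Cells of Glu11, its highest cluster, were 0%, 1.13%, 3.05% and 3.60% of the neurons of those normal mice and 0.401%, 0.995% and 2.06% of those of the food-deprived mice. Without Glu11, on plain totals, Nr4a2 was 7.60 ± 6.53 CPM in normal (n = 4) and 6.35 ± 3.37 CPM in food-deprived neurons (n = 3). Klf4 was 87.7, 54.1, 64.4 and 56.4 CPM in the normal mice and 33.7, 53.4 and 30.6 CPM in the food-deprived mice, which were all lower (log2 -0.62 ± 0.24, edgeR adjusted p = 1). Egr2 was low in both groups, 16.7 ± 7.48 against 10.7 ± 1.33 CPM (log2 -0.84 ± 0.29, edgeR adjusted p = 1). Nfkbiz was 95.9 ± 37.1 against 57.9 ± 3.87 CPM without overlap (log2 -0.56 ± 0.23, edgeR adjusted p = 1). Atf3 was 729 CPM in normal replicate 2, 60.9 to 190 CPM in the other normal mice and 69.7 to 91.1 CPM in the food-deprived mice, overlapping (log2 -1.47 ± 0.66, edgeR adjusted p = 1).

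GABA and Glu cells, which make up all but 17 of the neurons, leaned the same way. In GABA 25 of 29 genes were lower (median -0.34) and 3 had p under 0.05 (Klf4, Egr2 and Nfkbiz), against 1.82% of all genes. The GABA median was -0.18 without normal replicate 2 and -0.14 with the batch as replicate block. Klf4 alone was lower without overlap there (1.75% of all genes), 49.0 ± 10.3 against 83.1 ± 19.6 CPM (log2 -0.66 ± 0.23, edgeR adjusted p = 1). In Glu 21 of 27 were lower (median -0.31) and 3 had p under 0.05 (Nr4a2, Atf3 and Klf2), against 3.58% of all genes. The Glu lean was lost without normal replicate 4, when 12 of 28 were lower, and with the batch as replicate block, when 13 of 27 were. Nr4a2 in Glu was 24.0, 67.5 and 77.9 CPM in the normal and 7.63, 17.9 and 30.4 CPM in the food-deprived mice, overlapping (log2 -1.71 ± 0.51, edgeR adjusted p = 1). Atf3 in Glu was 17.5, 77.7 and 134 CPM against 23.7, 38.2 and 19.0 CPM, also overlapping (log2 -1.41 ± 0.57, edgeR adjusted p = 1), and the log2 value was -0.67 without normal replicate 5. Both were called only when the filter on low counts was dropped, with edgeR adjusted p = 0.00114 for Nr4a2 and 0.00263 for Atf3.

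Among neuronal clusters the counts went both ways. In GABA15, the Agrp cluster, all 17 tested genes were lower (median -0.38; 50.3% of all genes), 1 of them with p under 0.05 against 1.45% of all genes. That was Npas4, at 73.5, 269 and 284 CPM in 3 normal mice and 62.8 and 116 CPM in 2 food-deprived mice (log2 -1.34 ± 0.56, edgeR adjusted p = 0.999), and the groups overlapped. Fos there was 3281 ± 1252 against 2853 ± 784 CPM (log2 -0.21 ± 0.38), Fosb had log2 -0.41 ± 0.52, Junb -0.53 ± 0.44 and Egr1 -0.68 ± 0.40. Arc and Nr4a1 held 13 UMIs each in GABA15 and were not tested. Atf3 there was 931 ± 215 CPM in normal (n = 3) and 726 ± 14.7 CPM in food-deprived mice (n = 2) on plain totals. GABA15 made up 36.6% of the neurons of normal replicate 2 and 0.746% to 8.54% of those of the other mice with at least 100 neurons, so the neuronal Atf3 of that mouse, 701 CPM on plain totals, falls to 102 CPM without it. Over the groups, Atf3 in neurons without GABA15 averaged 91.0 ± 40.8 CPM for normal (n = 4) against 39.7 ± 14.6 CPM for food-deprived mice (n = 3), and 265 ± 294 against 83.3 ± 11.8 CPM when GABA15 is kept.

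In GABA8 13 of 18 genes were lower and 3 had p under 0.05, against 2.46% of all genes (Klf4, Fosb and Nr4a1). Lower without overlap was 1 of the 18, Fosb, against 1.76% of all genes, and higher without overlap 1, Rhob, against 2.55%. Fosb was at 1484 ± 250 CPM (n = 4) against 947 ± 239 CPM (n = 3) (log2 -0.62 ± 0.22, edgeR adjusted p = 1). In GABA13 13 of 17 were lower and 2 had p under 0.05 (3.70% of all genes), Jun with log2 -0.55 ± 0.21 and Klf6 with -0.75 ± 0.28. Lower without overlap were 4 of the 17, Atf3, Jun, Klf4 and Klf6, against 4.5% of all genes. Glu4, Glu5 and Glu7, the only Glu clusters with enough mice to test, leaned the other way or not at all. Each had 2 normal mice. In Glu4, with 2 mice a group, 11 of 16 were higher and 4 had p under 0.05, each higher, against 5.08% of all genes. They were Btg2 (log2 2.12 ± 0.68, edgeR adjusted p = 0.872), Junb, Dusp1 and Jun. In Glu5 12 of 13 were higher (1 with p under 0.05, Junb, against 2.78%), and in Glu7 6 of 15 were higher (0 with p under 0.05 by edgeR, against 2.18%). Some of these counts moved with the mice or the fit. In GABA8 8 of 16 were lower without normal replicate 3, and in GABA13 9 of 17 with the batch as replicate block. In Glu7 11 of 14 were higher without food-deprived replicate 1, and 13 of 13 lower without food-deprived replicate 2. The difference between these clusters was not tested.

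In Astro the counts went one way. Each of the 23 tested genes was lower after food deprivation (median -0.65, while 50.3% of all 5837 genes were lower), and 7 had p under 0.05, against 3.14% of all genes. The 2 without overlap, Fosb and Ier5, compare with 4.33% of all genes lower without overlap. Fosb was 1692, 795 and 978 CPM in normal replicates 3 to 5 and 776, 448 and 209 CPM in the food-deprived mice (log2 -1.26 ± 0.42, edgeR adjusted p = 0.999). Ier5 was 156, 114 and 174 CPM against 101, 82.9 and 65.7 CPM (log2 -0.78 ± 0.30, edgeR adjusted p = 0.999). Jun and Nfkbiz were the other two. Klf4 (log2 -1.44 ± 0.48), Egr2 (-1.42 ± 0.50) and Klf6 (-1.09 ± 0.35) overlapped between groups, normal replicate 3 being highest for each of them. That mouse summed to 25161 CPM over the 33 genes on plain totals, against 10175 and 16291 CPM in the other normal mice and 8815 to 14156 CPM in the food-deprived mice. Without it 15 of 22 were lower, with a median of -0.08, and 0 had p under 0.05 by edgeR, against 116 of all 4108 genes. Within batch 1, which holds it, 23 of 23 were lower in the food-deprived mouse, and within batch 2 7 of 23. Astro libraries also differed in RNA of other cells. Myelin markers, 5 of 5 detected, summed to 2556 to 14538 CPM in the normal and 1119 to 8928 CPM in the food-deprived mice, and neuron markers, also 5 of 5, to 1731 to 4558 and 1432 to 5352 CPM. Their part in the result was not tested.

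**Figure D4:**
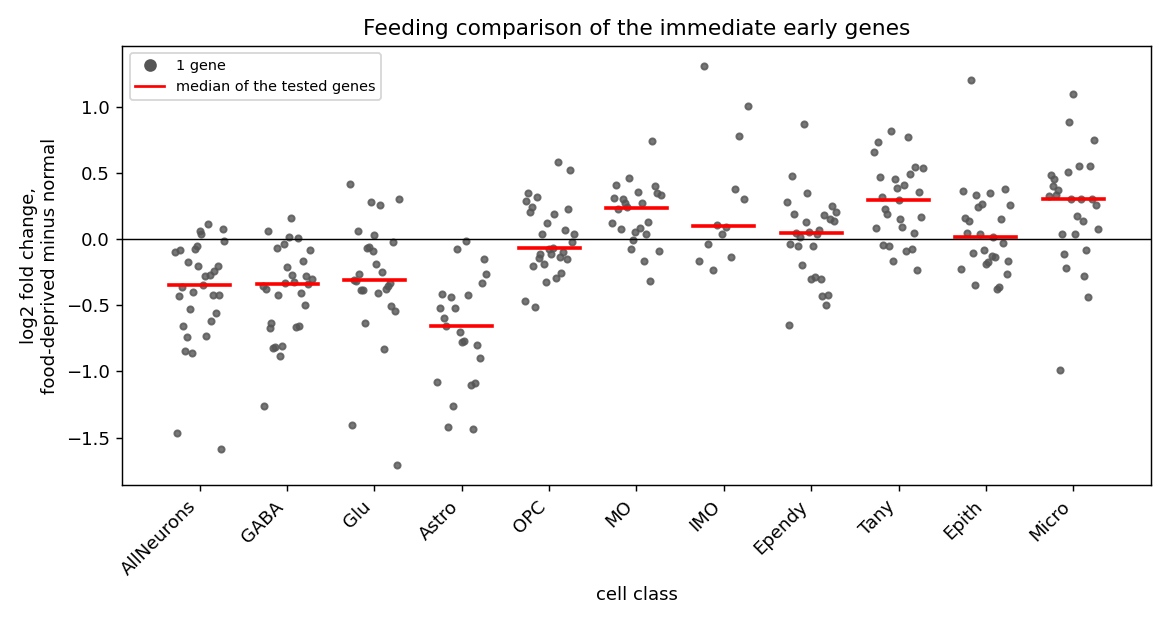
Log2 fold change (food-deprived minus normal) of each tested early gene by class, with the median as a red bar. Medians lie below 0 in all neurons, GABA, Glu and Astro (-0.65) and above 0 in MO, Tany and Micro, and no gene passed the test.

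Oligodendrocytes, tanycytes and microglia leaned higher. In MO 19 of 24 genes were higher (median 0.23) and 1 had p under 0.05, against 3.95% of all genes. This was Maff, whose level averaged 14.4 ± 9.03 CPM over the normal mice and 22.6 ± 6.86 CPM over the food-deprived, with overlap (log2 0.74 ± 0.30, edgeR adjusted p = 1). With the batch as replicate block 22 of 24 were higher and 7 had p under 0.05, as had 577 of all 7977 genes. Without food-deprived replicate 2, however, 12 of 24 were higher and the median was 0.00. Atf3 in MO was 118 ± 78.8 against 139 ± 64.0 CPM (log2 0.31 ± 0.39, edgeR adjusted p = 1). It was called only in the low-Gapdh libraries with the batch as block, with 2 mice a group (log2 0.81 ± 0.16, edgeR adjusted p = 0.0317).

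In Tany 21 of 27 were higher (median 0.29) and 3 had p under 0.05 (Btg2, Dusp1 and Zfp36), each higher, against 3.07% of all genes. Without overlap and higher were 3 of 27, Dusp1, Dusp6 and Gadd45g, against 4.09% of all genes, and lower 1, Nfkbiz, against 4.43%. Without food-deprived replicate 2 the median was 0.13, with 18 of 28 higher, and 1 had p under 0.05, as had 128 of all 6682 genes. With the batch as replicate block the median was 0.19, and 1 had p under 0.05, as had 296 of all 5938 genes. Dusp1 was 502, 587 and 527 CPM in the normal mice and 707, 758 and 769 CPM in the food-deprived mice (log2 0.47 ± 0.20, edgeR adjusted p = 0.999). Btg2 was 1740 ± 412 against 2891 ± 901 CPM, overlapping (log2 0.73 ± 0.26, edgeR adjusted p = 0.999). Within batch 1 the tanycyte genes were even, 14 of 27 higher, and within batch 2 22 of 27 were higher. In Micro, with 3 normal and 2 food-deprived mice, 21 of 27 were higher (median 0.30) and 1 had p under 0.05 (2.58% of all genes). This was Ier3, at 674, 277 and 166 CPM against 697 and 1017 CPM (log2 1.10 ± 0.45, edgeR adjusted p = 1). Higher without overlap were 4 of 27 (Atf3, Dusp1, Egr2 and Ier3), against 10.2% of all genes. Within batch 1 13 of 27 Micro genes were higher (median -0.03) and within batch 2 23 of 27 (0.58), and without food-deprived replicate 2 the median was 0.17.

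**Figure D5:**
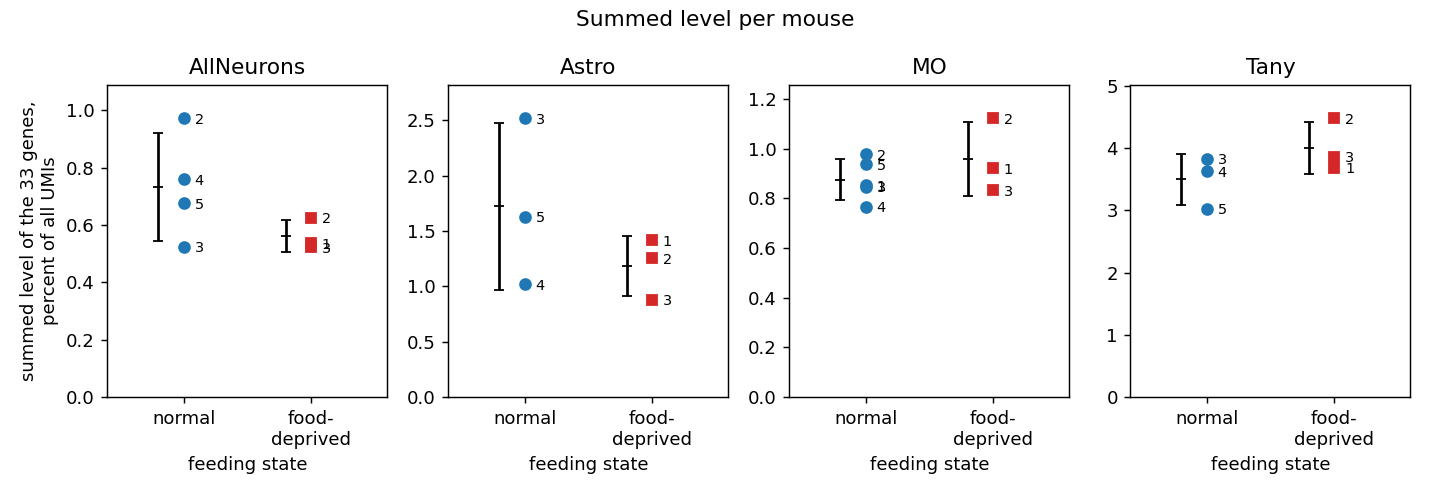
Summed level of the 33 genes as a percent of all UMIs, per mouse, in all neurons, Astro, MO and Tany. Points carry the replicate number and black bars show mean ± SD, and normal replicate 3 stands highest in Astro at 25161 CPM.

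The remaining classes showed no common direction. In OPC 16 of 29 were lower and 13 higher, and 1 had p under 0.05 (3.14% of all genes). That was Nr4a1, at 518, 546, 465 and 431 CPM in the normal mice and 789, 597 and 730 CPM in the food-deprived mice, the one early gene higher without overlap there, against 2.98% of all genes (log2 0.52 ± 0.18, edgeR adjusted p = 1). In Ependy 16 of 27 were higher and 2 had p under 0.05 (4.44%), Dusp1 with log2 0.48 ± 0.19 and Atf3 with -0.65 ± 0.26. In Epith 14 of 27 were higher (median 0.01) and 1 had p under 0.05 (3.52%), Egr2 with log2 1.21 ± 0.51. In IMO 8 of 12 were higher and 1 had p under 0.05 (4.64%), Egr1 with log2 1.31 ± 0.56. It was 306 and 78.2 CPM in the 2 food-deprived mice and 57.4 to 119 CPM in the normal mice, and its log2 value was 0.04 without food-deprived replicate 1 and 2.01 without food-deprived replicate 2. In all cells summed, 17 of 31 were lower and 0 had p under 0.05 by edgeR, against 0.827% of all genes.

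Whether neurons and MO differed in their change with feeding was tested by 1 term for class by feeding, with the mouse as a block. The term called 0 of 31 early genes and 0.0434% of all 11517 genes, 5 in number. Its estimate was lower in neurons for 29 of the 31 (median -0.52), with 57.2% of all genes lower, and 11 had p under 0.05, each lower, against 4.45% of all genes. Atf3 came nearest (log2 difference -1.17 ± 0.28, edgeR adjusted p = 0.0798), followed by Egr2 (-1.13 ± 0.35, edgeR adjusted p = 0.511) and Btg2 (-0.81 ± 0.26, edgeR adjusted p = 0.543). The term was fitted in 1 setting only, with no mouse left out. In the separate MO fit 12 of 24 genes were higher without food-deprived replicate 2. Neuronal Atf3 of normal replicate 2 was 701 CPM on plain totals, and 102 CPM without its GABA15 cells.

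Other genes of the pathway were counted by list, in the main fits only. Upstream regulators, a list of kinases, transcription factors and coactivators, were even in neurons, 10 of 21 lower with a median of 0.01. In 4 of the classes the coactivator gene Crebbp was lower with p under 0.05, among them Epith at 114 ± 9.25 against 66.0 ± 8.89 CPM (log2 -0.80 ± 0.23, edgeR adjusted p = 1). Of the late response list, which shares Crem with the upstream one, 15 of 17 were lower in neurons (median -0.20) and 8 of 10 higher in MO (0.21). In GABA 13 of 15 were lower (median -0.22) and in Glu 7 of 15 (0.05). The name is that of the list, and the timing of its genes was not tested. Of 20 further early genes, all 12 tested in neurons were lower (median -0.38). Socs3, a cytokine feedback inhibitor, was 27.4 ± 5.61 against 13.9 ± 1.20 CPM in neurons (log2 -0.92 ± 0.24, edgeR adjusted p = 1). Medians of all genes were between -0.01 and 0.01 in these class fits, and edgeR called 0 genes of these lists in any class.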

How the data were processed

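Single-cell UMI counts per gene were deposited by the authors as 17 library tables and 1 merged table, with a cluster name for each of 14437 cells. The submitters' processing notes name the build mm9, while the sources used here give no aligner or counter. Barcode, batch and feeding state together placed 14276 of these cells in 1 library each, with counts equal to those of the merged table. The other 161 were left out, 97 of them because their barcode occurred in 2 libraries of the same batch and state. Doublets were not called again.

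The 33 genes, the lists of other genes and the rule for named genes were chosen with earlier results of these data known. The rule named each gene's highest class and neuronal cluster, pairs of gene and class with an unadjusted p under 0.05 and a fixed set of early genes in neurons and GABA15. Counts were summed per mouse and class (at least 20 cells; 10 per tested cluster and 5 in GABA15), filtered with filterByExpr, scaled by TMM and tested with edgeR 4.0.16 in R 4.3.3, with Benjamini-Hochberg adjustment at 0.05. DESeq2 1.42.0, another scaling (RLE), no filter, other cell minimums, either kind of library, the batch as a block and leaving out each mouse were alternatives. The fits were tested on simulated data. Depth per mouse was 290861 to 12570644 UMIs. Promoter windows came from RefSeq, and coordinates of the deposited build were not used. Within the 2 batches with both groups, the deviations of batch mates correlated at 0.058 to 0.36 over 7 classes. The labels' batch number was taken as the pairing only in the fits with the batch as a block and the within-batch values. The main fits held feeding state alone, except that the term for neurons and MO had the mouse as a block.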

Additional observations from a re-analysis of the deposited data

Results flagged for a closer look

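In 6 of 131 groups of normal mice (4.58%) 1 mouse lay far from the rest by Dixon's criterion, which chance gives in about 1 of 20. Normal replicate 2, with 41 neurons, was that mouse in 4 of them. Its Junb in all neurons was 560.2 CPM and the next mouse had 298.7 CPM. In GABA its Jund was 1719 CPM (next 636.8), its Egr1 1811 CPM (next 743.1) and its Dusp1 394.1 CPM (next 294.4). Fos in MO was 3158 CPM in normal replicate 5 and 1865 CPM in the next mouse. Maff in GABA8 was 194 CPM in normal replicate 3 and 40.7 CPM in the next.

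One gene of the late response list, the cell cycle inhibitor gene Cdkn1a, differed between neurons and MO in its change with feeding, with a log2 difference of -1.61 ± 0.31 (SE, edgeR adjusted p = 0.00343). In MO it was 66.9, 495 and 97.8 CPM in the food-deprived mice and 0, 297, 48.8, 60.3 and 30.4 CPM in normal replicates 1 to 5. In neurons it was 28.1, 58.9 and 18.8 CPM in the food-deprived mice and 169, 18.4, 25.5 and 47.6 CPM in normal replicates 2 to 5. Food-deprived replicate 2 was highest in MO and normal replicate 2 in neurons, and the groups overlapped in both.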

How the results depend on the processing

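Of 419 log2 values of 33 named pairs of gene and class under the alternatives, 407 kept their sign, 12 reversed and 3 were called. Most of these pairs were picked for a small p in the main fits, or for a call in any fit. Their kept signs thus say little about stability. All 12 reversals fell in the fixed set of early genes in neurons and GABA15. With the batch as replicate block, genes called over all genes numbered 8 in all neurons, 20 in all cells, 18 in OPC, 16 in MO, 7 in Tany, 3 in Glu and 1 in IMO, and in clusters 22 in GABA8 and 7 in Glu4, and Junb (0.02484) and Arc (0.1527) in neurons reversed. In the low-Gapdh libraries with that replicate block the counts were 14 for all neurons, 22 each for Glu and GABA, 37 for MO, 15 for OPC, 8 for Astro and 11 for Epith, with 1 early gene called in MO, and Junb (0.003817), Arc (0.2622) and Nr4a1 (0.006185) in neurons reversed. The block called 0 early genes with all libraries. Without a filter 37 genes were called in Glu (2 of them early genes), 22 in MO, 21 in Ependy, 18 in Astro, 14 in Tany, 5 each in Epith and GABA, 3 each in Micro and OPC, and 1 in IMO. DESeq2 called 1 in OPC and 1 in Glu4. Lower early genes numbered 13 of 27 in Glu with the replicate block and 13 of 28 in OPC at a cell minimum of 10. They numbered 15 of 18 in Astro in the high-Gapdh libraries and 16 of 33 in all cells without a filter. In GABA15 they were 26 of 31 with DESeq2 against 17 of 17 in the main fit. Higher ones in IMO numbered 21 of 29 (no filter) and 19 of 29 (DESeq2), against 8 of 12 in the main fit. In Epith they numbered 10 of 26 in the high-Gapdh libraries. Leaving out 1 mouse in turn, genes called ranged from 0 to 1 in MO and in Tany, 0 to 3 in IMO, 0 to 2 in GABA13 (the 2 without normal replicate 3), 0 to 2 in Glu5 (the 2 without normal replicate 5) and 0 to 12 in Micro (the 12 without normal replicate 3). Lower early genes ranged from 12 of 28 to 26 of 28 in Glu and from 11 of 27 to 18 of 29 in OPC. They ranged from 15 of 22 to 26 of 28 in Astro and from 14 of 31 to 23 of 31 in all cells. In GABA15 the range was 10 of 14 to 17 of 19, the 10 without normal replicate 5. Higher ones ranged from 12 of 24 to 23 of 25 in MO. In Ependy the range was 9 to 22 and in Epith 9 to 17, each of 27. Fos in GABA15 ranged from -0.5283 to 0.1216, Fosb there from -1.02 to 0.00416, Junb in neurons from -0.4721 to 0.001119, Arc from -0.436 to 0.154 and Npas4 from -0.3611 to 0.003711. Other log2 values that moved by over 1.5 times without 1 mouse included Atf3 in MO (0.059 without food-deprived replicate 2, 0.72 without normal replicate 5), Atf3 in Ependy (-0.39), Klf4 (-0.90) and Klf6 (-0.69) in Astro and Ier3 in Micro (1.82), each without normal replicate 3, and in GABA15 Egr1 (-0.25 without food-deprived replicate 3, -1.31 without food-deprived replicate 1), Junb (-0.016 without normal replicate 3) and Npas4 (-0.87 without food-deprived replicate 1). The alternatives test different numbers of genes or samples, and other causes were not tested. Of 392 class levels, 4 moved by more than 1 SD, as did 36 of 44 shares of cells with Fos. Small classes and normal replicates 1 and 2 limit depth.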

Other observations

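Heat shock genes, which encode chaperones and answer protein damage, leaned lower in the food-deprived mice in most classes. In neurons all 11 were lower (median log2 -0.48), in OPC 9 of 9 (-0.42), in MO 8 of 10 (-0.38) and in Ependy 9 of 10 (-1.09). In Ependy 7 of the 10 had an unadjusted p under 0.05, against 4.44% of all genes. In Astro 8 of 9 were lower (-0.23). By edgeR 0 of these genes were called in any class, and medians of all genes lay near 0. Among the tested neuronal clusters Glu4 went the other way, with 7 of 9 higher, and the others had more genes lower. The list was counted in the main fits only, with no mouse left out and no term for batch.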
